A study of Mus musculus with 8 samples.

Results

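The genes described here are 9 genes that mark medium spiny neurons, the projection neurons of the striatum, which lies directly beneath the ventricular-subventricular zone (V-SVZ). They were chosen by name with earlier results of these data known, although no measured value entered the rule, and all 9 were found among the 54307 genes of the deposited gene table. *Drd1*, *Tac1* and *Pdyn* are known for the direct pathway, *Drd2*, *Adora2a*, *Penk* and *Gpr6* for the indirect pathway, and *Ppp1r1b* and *Rgs9* are made by both kinds of medium spiny neuron.

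Bulk RNA sequencing was done on periventricular tissue containing the V-SVZ, taken from one hemisphere of 8-week-old mice (4 *Lrig1* KO, 4 WT), to look for signalling pathways that loss of LRIG1 disturbs. *Lrig1* encodes a transmembrane inhibitor of growth factor signalling. KO mice carried a CreERT2 cassette knocked into *Lrig1* on both alleles, so that the gene was lost constitutively in every cell and not in neural stem cells alone, and WT littermates carried 2 unmodified alleles. Mice of both groups were of the 129-Elite strain, and no treatment was stated. The WT group held 3 females and 1 male (replicate 2), and the KO group held 2 females and 2 males (replicates 1 and 3). Estimated reads per mouse ranged from 47887437 to 74482334.

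Medium spiny neurons receive dopamine from the midbrain and glutamate from the cortex and thalamus, and they send GABAergic axons out of the striatum. Direct pathway neurons carry the D1 dopamine receptor, which raises cAMP, and release substance P and dynorphin with GABA. Indirect pathway neurons carry the D2 dopamine receptor, which lowers cAMP, together with the adenosine receptor encoded by *Adora2a*, and release enkephalin.

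The genotype was checked first on *Lrig1* itself. *Lrig1* was at 45.6, 13.5, 41.4 and 34.3 CPM (counts scaled to a common library size and normalized for library composition) in WT replicates 1 to 4 and at 1.41, 4.15, 1.17 and 2.96 CPM in KO replicates 1 to 4. The groups did not overlap, the KO mean was 7.19% of the WT mean, and WT replicate 2 was the lowest WT mouse. The log2 fold change was -3.80 (SE 0.52), with an adjusted p of 0.286 by edgeR's quasi-likelihood test and 4.1e-08 by DESeq2.

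No difference between KO and WT mice was detected in any medium spiny neuron gene. All 9 were measured deeply, between 1972 reads (*Gpr6*, the lowest mouse) and 115011 reads (*Ppp1r1b*, the highest mouse), and all 9 passed the filter on low counts. At an adjusted p under 0.1, 0 of 9 were called by edgeR or by DESeq2, beside 0.00566% of the 17669 genes tested by edgeR (1 gene) and 0.0736% by DESeq2 (13 genes). At an unadjusted p under 0.05 the count was also 0 of 9 in edgeR, beside 1.88% of all genes. In 0 of 9 genes did the groups fail to overlap, beside 1.53% of all genes. The fitted log2 fold change was below 0 in 8 genes and above 0 in 1, with a median of -0.08, beside a median of -0.00094 over all genes, of which 50.3% were below 0. In bulk tissue, a difference in the number of medium spiny neurons, in RNA per neuron or in the share of striatal tissue could not be told apart.

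**Figure D1:**
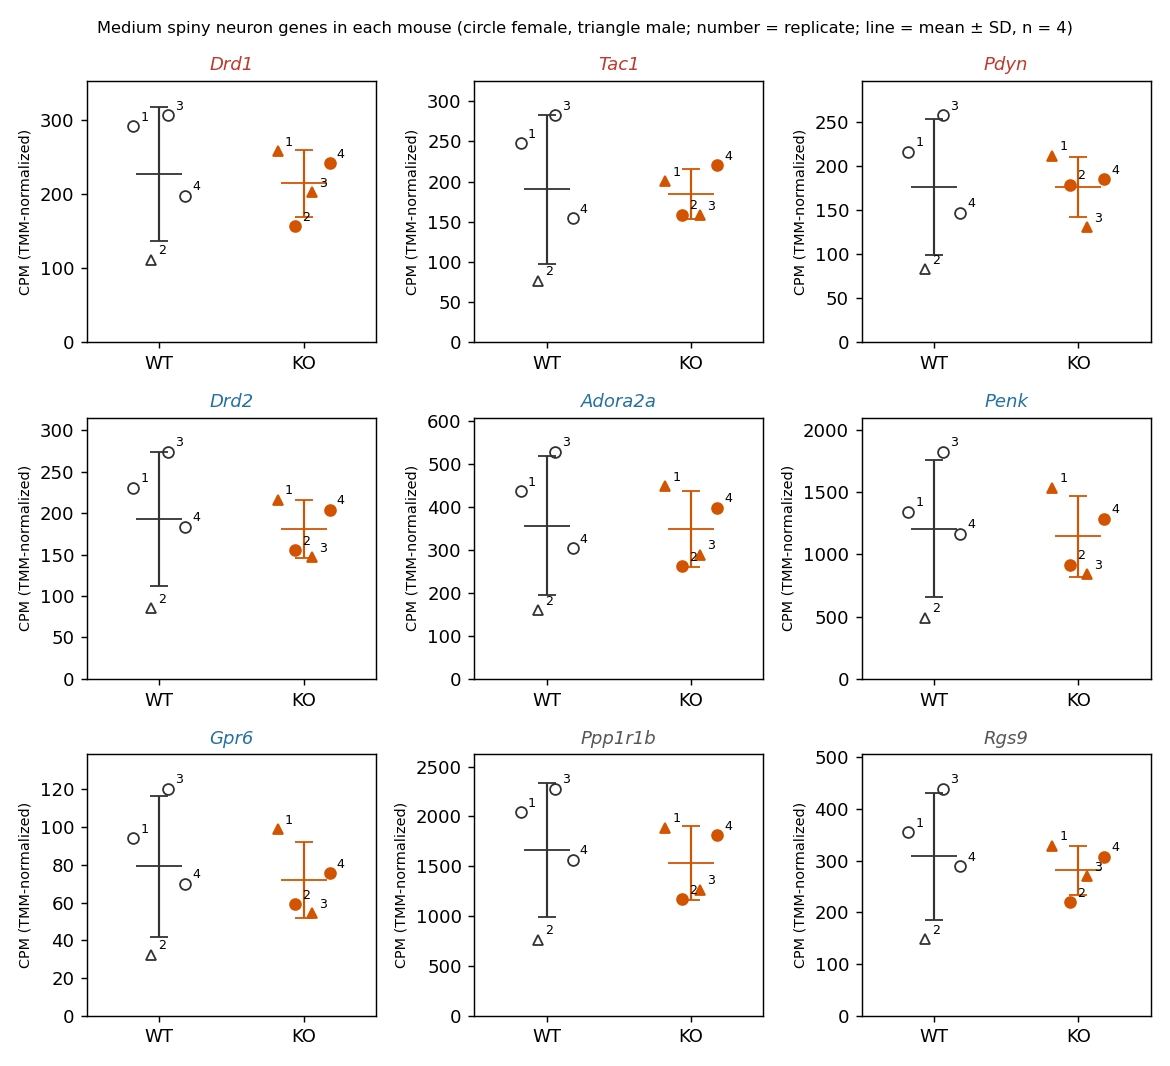
CPM of each medium spiny neuron gene in each mouse, WT in black open symbols and KO in orange filled symbols, circles for females and triangles for males, numbered by replicate; lines give the mean ± SD of 4 mice. In every panel WT replicates 3 and 2 hold the highest and the lowest value, and all KO mice lie between them.

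Among the direct pathway genes, *Drd1*, which encodes the D1 receptor, was at 292, 112, 307 and 198 CPM in WT replicates 1 to 4 and at 258, 157, 202 and 242 CPM in KO replicates 1 to 4. The KO values all lay between the lowest and the highest WT values. The mean was 227 ± 90.7 CPM in WT and 215 ± 45.2 CPM in KO mice (SD, n = 4 each). The log2 fold change was -0.08 (SE 0.30, 95% confidence interval -0.76 to 0.60).

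*Tac1*, the precursor of substance P and neurokinin A, was at 248, 76.8, 283 and 154 CPM in WT and at 200, 158, 158 and 220 CPM in KO replicates 1 to 4. WT replicate 2 was again far below every other mouse. The log2 fold change was -0.05 (SE 0.35, interval -0.84 to 0.75). *Pdyn*, the precursor of the dynorphins, was at 216, 82.6, 258 and 147 CPM in WT and at 212, 179, 130 and 185 CPM in KO replicates 1 to 4. Its means were nearly equal, 176 ± 77.2 CPM in WT and 177 ± 34.0 CPM in KO mice (SD, n = 4 each), and it was the 1 gene with a fitted change above 0, at 0.0047 (SE 0.32, interval -0.71 to 0.72).

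Among the indirect pathway genes, *Drd2*, which encodes the D2 receptor, was at 231, 85.3, 274 and 183 CPM in WT and at 216, 155, 147 and 204 CPM in KO replicates 1 to 4. Its log2 fold change was -0.10 (SE 0.31, interval -0.81 to 0.61). *Adora2a* encodes an adenosine receptor that raises cAMP, against the D2 receptor. It was at 436, 159, 528 and 303 CPM in WT and at 448, 263, 288 and 398 CPM in KO replicates 1 to 4, with a log2 fold change of -0.03 (SE 0.34, interval -0.80 to 0.74). The KO mice again fell inside the WT range for both receptors.

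*Penk*, the precursor of the enkephalins, was at 1341, 492, 1822 and 1165 CPM in WT and at 1534, 917, 840 and 1284 CPM in KO replicates 1 to 4. The log2 fold change was -0.08 (SE 0.36, interval -0.90 to 0.75). *Gpr6* encodes an orphan receptor that signals through cAMP without an added ligand. It was at 94.2, 32.3, 121 and 69.9 CPM in WT and at 98.9, 59.0, 54.5 and 75.5 CPM in KO replicates 1 to 4. It had the largest fitted change of the 9, -0.14, which was smaller than its own SE of 0.36 (interval -0.96 to 0.68).

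*Ppp1r1b* encodes DARPP-32, the phosphoprotein through which dopamine and cAMP regulate protein phosphatase activity in both kinds of medium spiny neuron. It was at 2040, 762, 2281 and 1564 CPM in WT and at 1889, 1169, 1264 and 1813 CPM in KO replicates 1 to 4, with a log2 fold change of -0.12 (SE 0.32, interval -0.84 to 0.61). *Rgs9*, a regulator that speeds the switching off of G protein signals, was at 355, 148, 440 and 289 CPM in WT and at 329, 220, 269 and 307 CPM in KO replicates 1 to 4. Its log2 fold change was -0.13 (SE 0.29, interval -0.79 to 0.53). Over the 9 genes the unadjusted p in edgeR lay between 0.664 and 0.988, and the adjusted p was 0.9998 for each. The intervals were wide, so that a change of 0.5 on the log2 scale in either direction was inside the interval of every gene.

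The width of those intervals came with a large and shared spread between mice. Each of the 9 genes was highest in WT replicate 3 and lowest in WT replicate 2, and the highest mouse exceeded the lowest by 2.75 times (*Drd1*) to 3.73 times (*Gpr6*). The SD of log2 CPM over the 8 mice was 0.47 (*Rgs9*) to 0.60 (*Gpr6*), beside a median of 0.21 over all genes tested. The 9 genes therefore stood between the 82.3 and the 88.8 percentile of all genes for spread. WT mice spread more than KO mice in every one of the 9 genes, with an SD of log2 CPM of 0.67 to 0.85 in WT and 0.24 to 0.41 in KO mice. This rested largely on WT replicate 2. Without it, the SD of the mean log2 CPM of the 9 genes was 0.35 in WT, beside 0.30 in KO mice.

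The 9 genes rose and fell together from mouse to mouse. The mean of their log2 CPM, each gene centred on its own mean, was 0.40, -1.05, 0.65 and -0.05 in WT replicates 1 to 4 and 0.34, -0.25, -0.24 and 0.20 in KO replicates 1 to 4. Around these means, the SD among the 9 genes of 1 mouse was only 0.064 to 0.16. Their mean level was 8.14 ± 0.75 log2 CPM in WT and 8.16 ± 0.30 log2 CPM in KO mice (SD, n = 4 each), so that this plain mean was 0.025 higher in KO while the median fitted change was below 0. Without WT replicate 2 the WT mean was 8.49 ± 0.35 log2 CPM (SD, n = 3). Pearson's r between pairs of the 9 genes, a description over 8 mice whose values share library and normalization, had a median of 0.968 over 36 pairs (lowest 0.887, for *Pdyn* and *Drd1*), and a median of 0.917 (lowest 0.718) without WT replicate 2.

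**Figure D2:**
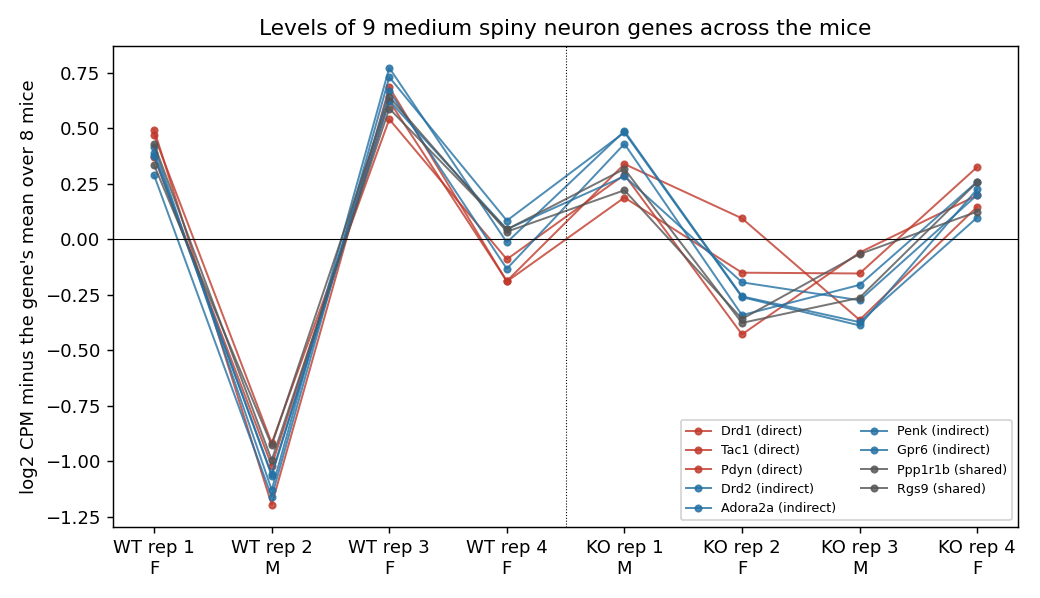
Level of each medium spiny neuron gene in each mouse (x axis, F female and M male), as log2 CPM minus the gene's mean over 8 mice (y axis), with direct pathway genes in red, indirect in blue and shared in grey. The 9 lines run together, from a mean of 0.65 in WT replicate 3 to -1.05 in WT replicate 2, and the KO mice lie between -0.25 and 0.34.

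Single WT mice decided the direction of the comparison. Without WT replicate 2, the male WT mouse, all 9 log2 fold changes were below 0, with a median of -0.34 (-0.40 in *Gpr6* to -0.23 in *Pdyn*), and 0 of 9 were called or reached an unadjusted p under 0.05 in edgeR (0.0713 in *Rgs9* to 0.307 in *Pdyn*), beside 0.0168% of all genes called and 3.12% below 0.05 in that fit. Without WT replicate 3, the highest mouse, all 9 were above 0, with a median of 0.14. Among females alone (3 WT and 2 KO), the median was -0.39, with all 9 below 0, the unadjusted p in edgeR lying between 0.0793 and 0.451 (under 0.05 in 0 of 9, beside 5.31% of all genes). With sex as a covariate the median was 0.13, with all 9 above 0 and 0 of 9 under an unadjusted p of 0.05, beside 6.95% of all genes in that edgeR fit. The male WT group was this 1 mouse, so that sex and this mouse cannot be told apart within WT. In none of the 19 fits examined was a medium spiny neuron gene called.

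WT replicate 2 also stood apart in other tissue markers. The summed CPM of 12 cortical excitatory neuron genes was 6791 in WT replicate 2, beside 2912 to 3134 in the other WT mice and 2137 to 3820 in KO mice. All 12 were detected in every mouse, and 11 had a fitted log2 fold change below 0 (median -0.85) with 0 called. *Camk2a*, which medium spiny neurons also express, made up most of this sum, while *Slc17a7*, the vesicular glutamate transporter of cortical neurons (chosen after its values were seen), reached 1356 CPM in WT replicate 2, beside 5.45 to 648 CPM in the other 7 mice. The summed CPM of the 9 medium spiny neuron genes was 1950 in that mouse, beside 4073 to 6311 in the other WT mice and 3276 to 5184 in KO mice. The 10 septal and hypothalamic genes summed to 192 CPM in WT replicate 2, their lowest, and to 965 CPM in KO replicate 2, their highest (296 to 503 CPM in the other WT and 301 to 427 CPM in the other KO mice), with 9 of 10 above 0 in the fit (median 1.04) and 0 called. *Hap1*, chosen after its values were seen, carried 79.5 CPM of the sum in WT replicate 2 and 482 CPM in KO replicate 2. The genes did not all follow the sum. In WT replicate 2, *Gpr101* was at its lowest (2.01 CPM) but *Lhx2* at its highest (62.9 CPM) of the 8 mice. *Lhx2* was also the 1 gene of the 10 with a fitted change below 0 (-0.46). It alone had an unadjusted p under 0.05 in edgeR (0.031, adjusted p 0.9998), beside 1.88% of all genes. The mean log2 CPM of the cortical genes had Pearson's r of -0.66 with that of the medium spiny neuron genes over 8 mice, and -0.27 without WT replicate 2. With the cortical list as a covariate, the median log2 fold change of the 9 genes was -0.11. The part of the dissection in these values was not tested.

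Markers of the V-SVZ itself were detected in every mouse. *Dcx*, which marks neuroblasts, was at 28.1 to 33.2 CPM in WT and 24.6 to 30.6 CPM in KO mice. The summed CPM of 10 neuroblast genes was 500.0 to 542 in WT and 500.5 to 611 in KO mice, and that of 10 ependymal genes was 43.3 to 64.3 in WT and 35.0 to 80.6 in KO mice. *Tubb3*, which neurons in general make, carried 298 to 355 CPM of the neuroblast sum in WT and 328 to 381 CPM in KO mice, and without it the sum was 151 to 212 CPM in WT and 159 to 230.1 CPM in KO mice. *Dcx* and *Tubb3* were named after their values were seen. Oligodendrocyte genes (10) summed to 7565 to 8233 CPM in WT and 6377 to 8094 CPM in KO mice. Astrocyte genes (10) summed to 4153 to 4668 CPM in WT and 3874 to 4195 CPM in KO mice, and *Slc1a2* made up most of this sum. Of the 10 astrocyte genes, 6 were below 0, 4 above and 0 called. *Gfap* (-0.44, unadjusted p = 0.035 in edgeR) was the 1 astrocyte gene under 0.05, beside 1.88% of all genes.

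**Figure D3:**
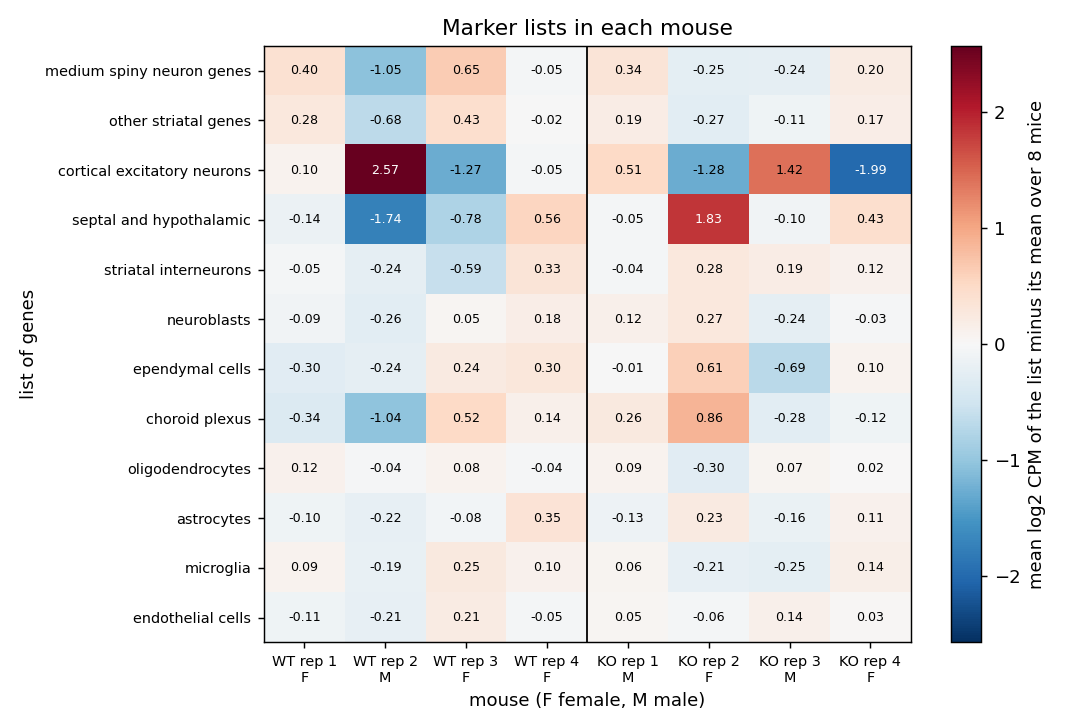
Mean log2 CPM of 12 lists of genes (y axis) in each mouse (x axis), minus the list's mean over 8 mice, from low (blue) to high (red). The medium spiny neuron genes and the other striatal genes share 1 pattern, with WT replicate 2 lowest at -1.05 and -0.68, where the cortical list is at its highest.

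A further 53 striatal genes outside the 9 were listed by role, and 52 of them were tested. In 39 the fitted change was below 0 and in 13 above, beside 50.3% of all genes below 0. The median was -0.07 and the range from -0.32 to 0.31. In edgeR 0 of 52 were called or reached an unadjusted p under 0.05, beside 0.00566% and 1.88% of all genes. Single mice decided this direction too. Without WT replicate 2, 50 of 52 were below 0, but only 14 without WT replicate 3 and 19 with sex as a covariate. Of 16 genes of cAMP and dopamine signalling, 12 were below 0, and those with the smallest p were *Pde2a* (a cyclic nucleotide phosphodiesterase, -0.14), *Rgs7bp* (a partner of RGS proteins, -0.11) and *Rasd2* (the striatal GTPase Rhes, -0.18). Of 12 transcription factors, 8 were below 0. *Ikzf1* was at -0.18 and *Rxrg*, a retinoid X receptor, at -0.21, while *Isl1*, which directs the direct pathway fate, was at 0.31.

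Of 9 striatal receptors tested, 5 were below 0, among them the muscarinic receptors *Chrm1* (-0.18) and *Chrm4* (-0.18), and 4 were above 0, among them *Gpr149* (0.28). Of 15 further striatum-enriched genes, 14 were below 0. *Scn4b*, a sodium channel subunit, had the largest change below 0 of all 52, at -0.32 (SE 0.22), from 899 ± 273 CPM in WT to 720 ± 100.5 CPM in KO mice (SD, n = 4 each), and *Eya1* (-0.22) and *Ngef* (-0.16) followed it by p in that list. The unadjusted p of *Scn4b* was 0.175 in edgeR, and its adjusted p was 0.9998.

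The mean log2 CPM of these 52 genes followed that of the 9 closely, with Pearson's r of 0.991 and the same order of the 8 mice, and r of 0.979 without WT replicate 2. This mean was therefore entered as a covariate, so that KO and WT mice were compared at a like striatal level. The log2 fold changes of the 9 genes then lay between -0.03 (*Rgs9*) and 0.14 (*Pdyn*), with a median of 0.020, and the SE fell to between 0.067 (*Adora2a*) and 0.14 (*Pdyn*). *Drd1* was at 0.0095 (interval -0.15 to 0.16), *Drd2* at 0.020 (-0.16 to 0.21), *Adora2a* at 0.082 (-0.071 to 0.24) and *Ppp1r1b* at -0.02 (-0.20 to 0.15). The smallest unadjusted p in that edgeR fit was 0.248 (*Tac1*, 0.12, interval -0.10 to 0.34), so that 0 of 9 were under 0.05, beside 2.78% of all genes. Without WT replicate 2 and with the same covariate, the median was 0.0041. A change shared by the 9 genes and the 52 would be taken up by the covariate, which follows the 9 genes so closely. These fits therefore describe the 9 genes relative to other striatal genes. They cannot show whether striatal genes changed together in KO mice.

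**Figure D4:**
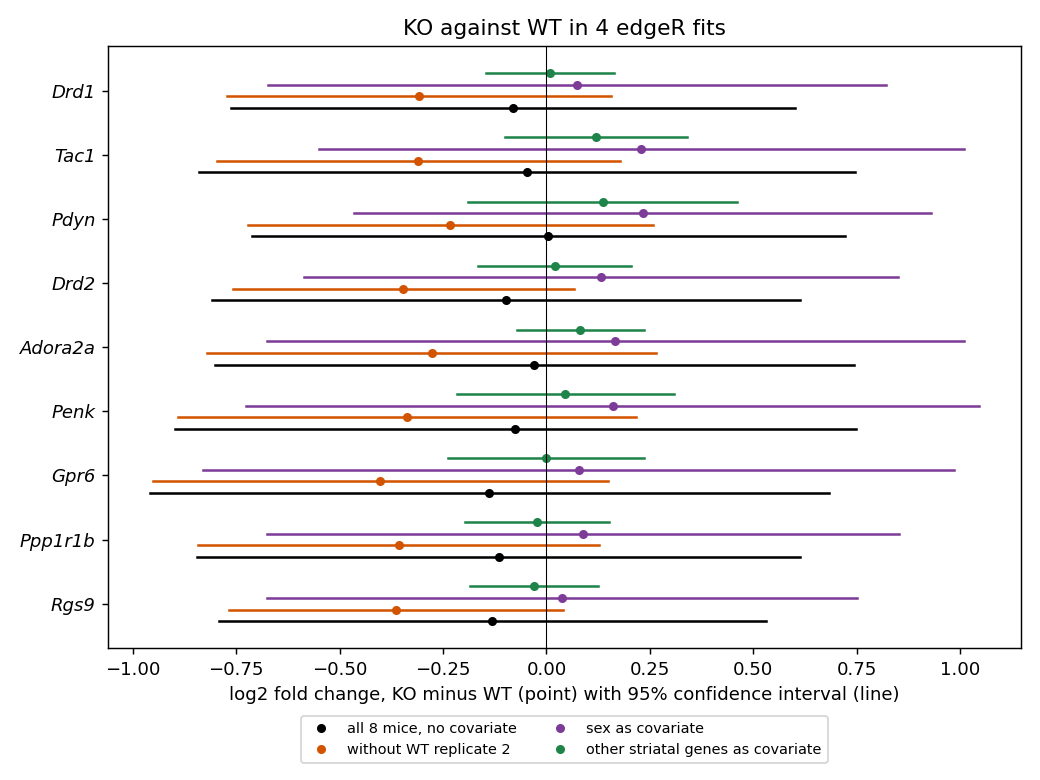
Log2 fold change of each medium spiny neuron gene, KO minus WT (x axis, point), with its 95% confidence interval (line) in 4 edgeR fits given by colour. Every interval holds 0, and the points move to the left without WT replicate 2 (median -0.34). The intervals narrow with the other striatal genes as a covariate (SE 0.067 to 0.14), which takes up any change shared with those genes.

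The balance of the direct and indirect pathway genes within each mouse overlapped between KO and WT mice. The difference of log2 CPM between *Drd1* and *Drd2* was 0.34, 0.39, 0.16 and 0.11 in WT replicates 1 to 4 and 0.25, 0.012, 0.46 and 0.24 in KO replicates 1 to 4. WT replicate 2, which was lowest in both genes, was not apart in their difference. The mean of the 3 direct pathway genes minus the mean of the 4 indirect pathway genes was -0.53 ± 0.11 in WT and -0.48 ± 0.12 in KO mice (SD, n = 4 each), a difference of 0.050.

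The peptide precursors of the pathways were set against each other in the same way. *Tac1* minus *Penk* was -2.68 ± 0.20 in WT and -2.61 ± 0.23 in KO mice, and *Pdyn* minus *Penk* was -2.75 ± 0.19 in WT and -2.67 ± 0.22 in KO mice (SD of log2 CPM differences, n = 4 each). The groups overlapped in each of these differences and in *Ppp1r1b* minus *Rgs9*, where the means differed by 0.0070. No test was made of these differences, which are a description.

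**Figure D5:**
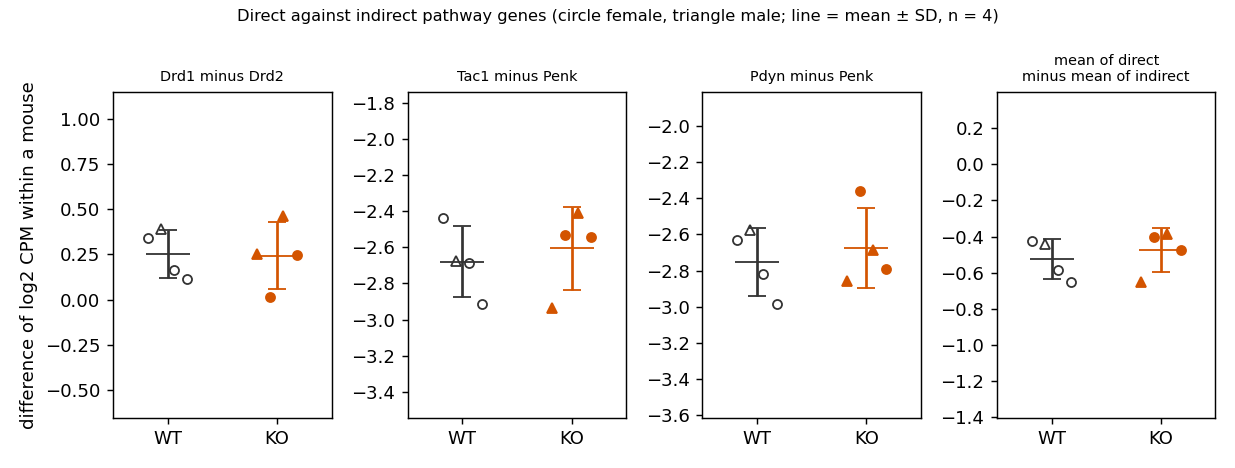
Difference of log2 CPM within each mouse (y axis, each panel spans the same width) for 4 pairings of direct with indirect pathway genes, WT in black and KO in orange, circles for females and triangles for males; lines give the mean ± SD of 4 mice. The groups overlap in every panel, and the means of *Drd1* minus *Drd2* are 0.25 in WT and 0.24 in KO mice.

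The genes whose levels most resembled the shared pattern of the 9 were ranked by Pearson's r over the 8 mice among 14443 other genes with a mean of at least 1 CPM. The first 10 were *Fam110b* (r = 0.995), *Rem2*, *Rarb*, *Sowaha*, *Cd4*, *Adcy5*, ENSMUSG00000118401.2, *Pde1b*, *Ptpn5* and *Gng7* (r = 0.989), of which 5 were among the 53 striatal genes. *Adcy5* encodes the main adenylyl cyclase of the striatum, *Pde1b* a calmodulin-dependent phosphodiesterase, *Ptpn5* the striatum-enriched tyrosine phosphatase STEP and *Gng7* a G protein gamma subunit. *Cd4*, best known as the coreceptor of helper T cells, was at 61.1, 23.4, 64.8 and 45.9 CPM in WT and at 52.4, 37.6, 39.0 and 51.8 CPM in KO replicates 1 to 4. These 10 had log2 fold changes from -0.12 (*Rarb* and *Adcy5*) to -0.03 (*Fam110b*). An r above 0.9 was reached by 362 genes (2.51%) and an r below -0.9 by 367 genes, so that high values of r were common over these 8 mice.

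The receptors, enzymes and other precursors that work with the striatal peptides showed no call either. Of 6 opioid and tachykinin receptors, 5 were above 0, with a median of 0.14. *Oprl1*, the nociceptin receptor, had the smallest p (log2 fold change 0.41, SE 0.19, unadjusted p = 0.0628 in edgeR), with 36.0, 38.3, 28.5 and 37.8 CPM in WT and 36.5, 67.3, 41.4 and 41.6 CPM in KO replicates 1 to 4. *Tacr3*, the neurokinin B receptor, was at 0.44 and *Oprd1*, the delta opioid receptor, at -0.12. Of 6 peptide processing enzymes, 3 were above and 3 below 0. *Pcsk2*, a prohormone convertase, was at -0.26, and the carboxypeptidases *Cpd* and *Cpe* were at -0.09 and -0.11.

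Of the other precursors, *Tac2*, which gives neurokinin B, was at 5.05 ± 3.21 CPM in WT and 8.80 ± 2.21 CPM in KO mice (SD, n = 4 each, log2 fold change 0.80, SE 0.40). *Pnoc*, which gives nociceptin, was at 2.46, 5.83, 1.32 and 8.60 CPM in WT and at 5.49, 21.9, 4.52 and 5.09 CPM in KO replicates 1 to 4. *Pomc* was at 1.66 ± 0.25 CPM in WT and 1.37 ± 0.15 CPM in KO mice (SD, n = 4 each). KO replicate 2 was the mouse with the highest *Oprl1* and *Pnoc* and also the one with the highest septal and hypothalamic sum.

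Genes of dopamine neurons, whose cell bodies lie in the midbrain, were low. *Th*, the rate-limiting enzyme of dopamine synthesis, was at 5.51 ± 1.67 CPM in WT and 8.19 ± 3.51 CPM in KO mice, *Slc18a2*, the vesicular monoamine transporter, at 1.21 ± 0.93 and 2.90 ± 2.18 CPM, and *Slc6a3*, the dopamine transporter, at 0.30 ± 0.15 and 0.46 ± 0.086 CPM (SD, n = 4 each). All 4 genes of this list were above 0, with a median log2 fold change of 0.59, and 0 of 4 were called. KO replicate 2 was the highest of the 8 mice in 3 of these 4, with *Slc18a2* at 6.01 CPM beside 1.21 to 2.79 CPM and *Th* at 13.2 CPM beside 4.97 to 7.54 CPM in the other KO mice. Without it, the KO mean was 1.87 ± 0.82 CPM for *Slc18a2* and 6.52 ± 1.36 CPM for *Th* (SD, n = 3).

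Levels were compared between genes in TPM, the scale on which Salmon corrects each transcript's reads for its length and the library's depth. *Penk* was the highest of the 9, at 1952 ± 723 TPM in WT and 1855 ± 420 TPM in KO mice, followed by *Ppp1r1b* at 1363 ± 444 and 1197 ± 222 TPM (SD, n = 4 each). *Tac1* came next at 353 ± 146 TPM in WT mice, then *Adora2a* at 267 ± 91.0, *Rgs9* at 183 ± 56.0, *Drd1* at 138 ± 38.7, *Drd2* at 109 ± 36.4, *Pdyn* at 108 ± 36.3 and *Gpr6* at 67.0 ± 25.2 TPM (SD, n = 4 each). Neighbours in this order overlapped in their range over WT mice except *Ppp1r1b* (700.4 to 1628 TPM) and *Tac1* (159 to 473 TPM). These ranges carry the spread between mice that the genes share. Within each single mouse, WT or KO, the order from *Penk* down to *Drd1* held, and *Gpr6* was the lowest. *Drd1* was above *Drd2* in each mouse but KO replicate 2 (85.4 and 88.2 TPM). *Drd2* and *Pdyn* were almost equal and changed order between mice. Their means exchanged places in KO mice at 101 ± 15.4 and 108 ± 15.0 TPM (SD, n = 4 each). Drd1-203, a 405-base transcript annotated as processed and not as protein-coding, made up 38.0% of *Drd1* TPM in WT and 35.4% in KO mice. Without it, *Drd1* would stand below *Drd2* and *Pdyn* in this order.

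*Tac1* is spliced into forms that differ in the peptides they can yield. The transcript Tac1-205 holds all 7 exons, Tac1-203 lacks exon 4, and Tac1-201 lacks exon 6, which encodes neurokinin A. Both skipped exons are entirely coding and are shown here because the forms differ by them, although Tac1-203 and Tac1-201 also differ from Tac1-205 at their first and last exons, so that the shares rest on those ends too (Gencode M21 on GRCm38, plus strand, exon in capitals with 12 bases of the exons on either side in lower case).
Tac1 exon 4, chr6:7557216-7557260: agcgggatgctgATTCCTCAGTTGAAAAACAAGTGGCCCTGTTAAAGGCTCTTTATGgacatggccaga
Tac1 exon 6, chr6:7559099-7559152: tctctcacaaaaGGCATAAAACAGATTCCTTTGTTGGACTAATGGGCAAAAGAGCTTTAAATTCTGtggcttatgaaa
Tac1-205 made up 45.6, 55.9, 52.0 and 55.9% of *Tac1* TPM in WT and 46.3, 60.2, 59.0 and 57.4% in KO replicates 1 to 4. Tac1-203, without exon 4, made up most of the rest, at 45.5 ± 2.85% in WT and 42.3 ± 5.17% in KO mice (SD, n = 4 each). Tac1-201, without exon 6, was at 0.30 to 5.32% in WT and 0.88 to 3.85% in KO mice, and was highest in replicate 1 of each group.

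The share of the leading transcript was tested for the 7 of 9 genes with at least 2 expressed transcripts, and none passed the test. The share of Tac1-205 was 52.3 ± 4.89% in WT and 55.7 ± 6.40% in KO mice (SD, n = 4 each, exact two-sided permutation p = 0.4). The leading transcripts of *Pdyn* and *Rgs9* made up over 90% of their genes, Pdyn-201 at 98.5 and 98.04% and Rgs9-201 at 96.8 and 95.1% in WT and KO mice. Drd1-203 was at 38.0 and 35.4%, Adora2a-201 at 70.1 and 69.5%, Penk-202 at 50.9 and 51.5% and Ppp1r1b-201 at 84.6 and 88.8% (means of 4 mice). Drd1-203 is not annotated as protein-coding. The protein-coding Drd1-202 (28.1% in WT and 37.7% in KO mice) and Drd1-201 (33.8 and 26.9%) were not tested. The exact p lay between 0.171 (Rgs9-201) and 0.8 (Adora2a-201), and between 0.533 and 0.8 after Benjamini-Hochberg adjustment over the 7 genes, where 4 mice against 4 cannot give less than 0.029.

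In *Ppp1r1b*, the reads of 2 retained-intron transcripts were divided unevenly between mice, a feature chosen after its values were seen. Ppp1r1b-205 took 16.6% of the gene's TPM in WT replicate 4 and 6.45% in WT replicate 2, but 0.056 to 0.80% in the other 6 mice. Ppp1r1b-202 was at 0.14% and 3.86% in those same WT mice and at 3.34 to 15.2% in the others. Added together, the pair made up 14.4 ± 2.87% in WT and 10.2 ± 4.83% in KO mice (SD, n = 4 each).

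The promoters of the 9 genes were searched because the genes moved together between mice and because cAMP acts on transcription in these neurons. RefSeq promoters on GRCm38.p6, from 250 bases before to 50 bases after the start site, matched 6 of the 9 genes with 8 promoters (*Pdyn* and *Drd1* with 2 each, *Tac1*, *Drd2*, *Gpr6* and *Rgs9*). The cAMP response element TGACGTCA, which reads the same on both strands, was in 1 of the 8, that of *Gpr6*, and in 1.79% of 32851 mouse promoters. Its shorter core TGACG, which is part of the full element and was searched on both strands, was in the promoters of *Gpr6* and *Tac1* and in 20.8% of all promoters. The stretch of the *Gpr6* promoter that holds the full element, which begins 78 bases before the start site, is given 5′ to 3′ on the minus strand with the element in capitals.
Gpr6 promoter, chr10:41072291-41072410: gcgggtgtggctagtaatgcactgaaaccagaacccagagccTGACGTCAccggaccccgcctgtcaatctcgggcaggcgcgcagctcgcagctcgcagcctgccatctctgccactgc
A match is a description of these letters, and no binding was measured. Any part of cAMP in the shared movement of the 9 genes was not tested.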

How the data were processed

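PolyA-selected libraries were sequenced on 1 lane by a sequencing centre, which made the read files with bcl2fastq 2.20. The authors ran Salmon (version not given in the sources used here) against Gencode M29. The values used here are the estimated counts of genes, deposited as they were before any scaling, and the TPM of transcripts from the deposited Salmon output of every mouse. How transcripts were summed to genes and whether strand was used are not given in the sources used here. In Gencode M21, *Penk* and *Ppp1r1b* each overlap 1 gene on the opposite strand, so their reads could be split.

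Estimated counts were rounded. Gene symbols came from a table of names, which matched 94.8% of IDs. KO was compared with WT by edgeR 4.0.16 in R 4.3.3 (TMM, filterByExpr, quasi-likelihood test, no covariate), with Benjamini-Hochberg adjustment over 17669 genes and a threshold of 0.1. Log2 CPM used a prior count of 2. Fits with DESeq2 1.42.0, its size factors, other filters, covariates, a replicate block or fewer mice were alternatives. The fit was checked on simulated data. Mice are separate animals.

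Transcripts with a mean of at least 0.5 TPM were used for shares of a gene's TPM, tested by exact two-sided permutation. All 9 genes, *Lrig1* and the 10 genes most like the 9 were named. Up to 3 genes with the smallest p were named from each striatal, receptor, enzyme, precursor and dopamine neuron list. This rule was not followed in full for the other described lists, where some genes were named after their values were seen. Of the cell type lists, the cortical, septal and hypothalamic, neuroblast, ependymal, oligodendrocyte and astrocyte lists are described by their sums and, for some, by counts, medians and single genes, and the others appear in a plot. The genes and lists were chosen with earlier results of these data known. Protein sequences were not used here.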

Additional observations from a re-analysis of the deposited data

Results flagged for a closer look

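In groups of 4 mice, a value was singled out where its gap to the nearest other mouse exceeded Dixon's 95% limit, and 7 of 198 groups examined were (3.54%, where chance gives about 1 in 20). The summed CPM of the cortical excitatory neuron genes was 6791 in WT replicate 2, beside 3134 in the next WT mouse. In KO replicate 2, *Oprl1* was at 67.3 CPM beside 41.6 CPM in the next KO mouse, and *Pnoc* was at 21.9 CPM beside 5.49 CPM. Tac1-201, the form without exon 6, made up 3.85% of *Tac1* in KO replicate 1 and 1.21% in the next KO mouse. Penk-202 made up 55.2% of *Penk* in WT replicate 4 and 49.6% in the next WT mouse, and Penk-201, the only other *Penk* transcript, 44.8% and 50.4%. Ppp1r1b-204 made up 0.29% of *Ppp1r1b* in KO replicate 2 and 0.14% in the next KO mouse. No medium spiny neuron gene was singled out at the gene level.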

How the results depend on the processing

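The call of no medium spiny neuron gene held in all 18 alternatives, while the sign of the small fold changes did not. With sex as a covariate, *Drd1* was at 0.075, *Tac1* 0.23, *Drd2* 0.13, *Adora2a* 0.17, *Penk* 0.16, *Gpr6* 0.078, *Ppp1r1b* 0.089 and *Rgs9* 0.037. With the other striatal genes as a covariate, *Drd1* was at 0.0095, *Tac1* 0.12, *Drd2* 0.020, *Adora2a* 0.082 and *Penk* 0.045, and without WT replicate 2 as well (added after seeing the data), *Drd1* was at 0.028, *Tac1* 0.049, *Adora2a* 0.12 and *Penk* 0.0041. *Pdyn* was at -0.064 with the cortical covariate and -0.18 in females alone. With 1 mouse left out, log2 fold changes ran from -0.31 to 0.099 for *Drd1*, -0.31 to 0.21 for *Tac1*, -0.23 to 0.25 for *Pdyn*, -0.35 to 0.12 for *Drd2*, -0.28 to 0.22 for *Adora2a*, -0.34 to 0.20 for *Penk*, -0.40 to 0.14 for *Gpr6*, -0.36 to 0.076 for *Ppp1r1b* and -0.36 to 0.091 for *Rgs9*. The lower ends came without WT replicate 2 and the upper ends without WT replicate 3.

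The replicate numbers of WT and KO mice did not pair them (correlations of same-numbered deviations 0.077, -0.22, -0.22 and 0.27, and 1 of 4 WT mice correlated best with its own number). With the replicate block, *Drd1* was at 0.00053, *Tac1* 0.10, *Drd2* 0.0079, *Adora2a* 0.076 and *Penk* 0.037, and 0 genes were called in all. The number of all genes called, 1 in the edgeR comparison, was 13 with DESeq2, 2 without the filter, 0 with at least 10 counts in every mouse, 2 with sex, 0 with the striatal covariate, 2 with the cortical covariate, 3 in females alone, 0 to 3 with 1 mouse left out and 0 in the added fit. *Lrig1* was called under 6 of 18 alternatives, its log2 fold change lying between -4.21 and -3.47. The causes of these changes were not tested.

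For transcript shares, the KO minus WT difference of Adora2a-201 was 0.048 percentage points as a share of estimated counts. With 1 mouse left out it was -1.75 to 0.31 for Adora2a-201, -0.33 to 2.02 for Penk-202 and -2.49 to -0.83 for Rgs9-201. Rgs9-201 had an unadjusted exact permutation p of 0.029 without KO replicate 1, the lowest that this number of mice can give. Among all such runs over the tested genes, 52 kept sign and outcome, 3 reversed the sign and only this 1 became stronger. With 4 mice a group the SE of the 9 genes was 0.29 to 0.36, and 0.067 to 0.14 with the striatal covariate, and *Lrig1* at -3.80 (SE 0.52) did not pass the adjusted threshold in edgeR, so that the absence of a call does not set a small limit on a change.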
